A study of Homo sapiens with 8 samples.

Results

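Of the genes that build elastic fibres, 10 were looked up by symbol in the table of 8 RNA-seq libraries, and 8 of the 10 have a row there: the fibulins FBLN5, EFEMP1, EFEMP2 and FBLN1, the fibrillin FBN1, and the cross-linking enzymes LOX, LOXL1 and LOXL2. ELN and EMILIN1 are not analysed here. The set is 8 of 16153 listed genes, and all 8 reached 1 CPM in 2 or more libraries, the filter used for testing. So did 16103 of the 16153 listed genes, so passing it does not set the members apart. The cells were HMEC-1, an immortalised line of human dermal microvascular endothelium, grown on gelatin-coated plastic coverslips in automated culture units. The groups were: 3 libraries of cells left weightless in an incubator on the International Space Station (space_microg), 2 of cells in the centrifuge of the same incubator at 1 g (space_1g), and 3 of cells kept in a facility of the home laboratory (ground), whose cultures came back there by airliner while the others were launched. All groups share the cell line and a medium with serum, hydrocortisone, EGF, penicillin and streptomycin, and nucleic acid samples were fixed with RNA Protect Cell Reagent, the flight samples before their return to Earth. Both flight groups also went through launch and orbital radiation, and a single cell line stands for the endothelium. The labels do not say whether replicates were separate cultures, so spread and p-values refer to these libraries, and that spread may be technical.

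Elastic fibres give vessel walls and skin their recoil. Tropoelastin is secreted as a soluble monomer, gathers into globules at the cell surface, is laid onto a scaffold of fibrillin microfibrils, and is then cross-linked into an insoluble polymer by lysyl oxidases. The short fibulins sit between these parts: fibulin-5, made by FBLN5, binds tropoelastin, the cross-linking enzyme LOXL1 and, through an RGD motif, integrins of the cell surface, while fibulin-4, made by EFEMP2, brings in lysyl oxidase. Fibulin-5 is made by vascular cells including endothelium, and its loss leaves skin, lung and arteries with slack, fragmented elastic fibres.

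FBLN5 was chosen by its own measured CPM, which was low in both flight groups against the ground, so that difference is described here and not tested. The other members were taken for their roles in the same fibres. FBLN5 lies on the minus strand of chromosome 14 from 91869412 to 91947987 (GRCh38, GENCODE v29), EFEMP2 on chromosome 11 from 65866441 to 65873592, and FBN1 on chromosome 15 from 48408306 to 48645849, both also on the minus strand. EFEMP1 is on chromosome 2 from 55865967 to 55924139, FBLN1 on chromosome 22 from 45502238 to 45601135, LOX on chromosome 5 from 122063195 to 122078360 and LOXL1 on chromosome 15 from 73925989 to 73952137.

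Sequence before a RefSeq start is shown for FBLN5, the member that separated flight from ground, beside its relative EFEMP2 and the microfibril gene FBN1, which did not. The RefSeq table (GRCh38.p14) holds promoters for 6 of the 10 genes. From the 250 bases before the RefSeq start of each, the longest stretch outside every annotated exon is printed 5′ to 3′ on the minus strand, with CpG dinucleotides in capitals. By GENCODE v29 each stretch lies inside its gene, which on this strand begins at 91947987 in FBLN5, 65873592 in EFEMP2 and 48645849 in FBN1. Annotated transcripts thus also start upstream of each stretch, and it is not the sequence before the first start of the gene.
FBLN5, chr14:91947824-91947934: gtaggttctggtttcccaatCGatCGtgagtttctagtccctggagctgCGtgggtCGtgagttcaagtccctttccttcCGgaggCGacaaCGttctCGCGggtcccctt
EFEMP2, chr11:65872943-65873050: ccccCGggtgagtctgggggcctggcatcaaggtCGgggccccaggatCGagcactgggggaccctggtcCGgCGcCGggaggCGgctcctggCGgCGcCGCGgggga
FBN1, chr15:48644971-48645220: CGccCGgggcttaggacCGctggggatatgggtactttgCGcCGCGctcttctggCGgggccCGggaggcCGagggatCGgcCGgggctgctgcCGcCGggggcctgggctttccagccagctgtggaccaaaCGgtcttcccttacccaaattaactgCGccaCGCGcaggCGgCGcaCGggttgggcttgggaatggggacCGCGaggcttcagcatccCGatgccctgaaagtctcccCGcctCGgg
The FBLN5 stretch is 111 bases long with 56.8% G and C and 9 CpG, the EFEMP2 stretch 108 bases with 78.7% and 11 CpG, and the FBN1 stretch 250 bases with 69.6% and 25 CpG. A search on both strands found 0 matches in all 3 stretches for the GC box (GGGCGG), the AP-1 site (TGAGTCA), the E-box (CACGTG) and the TATA box (TATAAA). Among 35116 RefSeq promoters, the 111 bases farthest from the start hold the GC box in 19.1%, the AP-1 site in 1.47%, the E-box in 2.09% and the TATA box in 4.97%. For 108 bases these shares are 18.6%, 1.43%, 2.04% and 4.85%, and for 250 bases 42.6%, 4.2%, 6.34% and 10.7%. No match says only that these letters are not in the stretches shown, which end 130 bases before the RefSeq start in FBLN5 and 143 in EFEMP2.

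The table gives reads per gene scaled to library size (scaled CPM), and whole reads could be recovered from it. Library depth ran from 24248964 to 35388757 reads in the listed genes. The first principal component held 61.9% of the variance and set space_1g replicate 1 and ground replicate 3 (scores of -60.7 and -64.7) apart from the other 6 libraries (-1.51 to 31.1), which does not follow the groups. All 14 endothelial markers looked for were measured, with a summed level of 1502 to 2322 CPM in space_microg, 1703 to 1915 in space_1g and 2286 to 2649.6 on the ground. Of 8 fibroblast markers 4 were measured, among them COL1A1 at 90.5 to 228 CPM, and PDGFRA, DCN, LUM and FAP are not analysed here. Of 8 smooth muscle and pericyte markers 6 were measured (summed level 169 to 224 CPM in space_microg, 239 to 340.4 in space_1g and 232 to 425 on the ground), and of 4 keratinocyte and 4 leukocyte markers 1 each, KRT10 and CD14, at 1.04 to 4.29 CPM.

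In the ground libraries FBLN5 had 75.5, 59.4 and 61.6 CPM (replicates 1 to 3). It had 37.9, 29.2 and 35.1 CPM in space_microg and 41.6 and 39.2 CPM in space_1g. All 5 flight libraries lay below all 3 ground libraries, and the lowest ground value was 1.43 times the highest flight value. The same order was found in 2.23% of all 16103 genes tested, and the opposite order in 1.57%. The means were 65.5 ± 8.7 CPM (SD, n = 3) on the ground, 34.1 ± 4.44 (n = 3) in space_microg and 40.4 ± 1.66 (n = 2) in space_1g. These rest on 1002 to 2073 reads per library, with a counting error of 2.2% to 3.16%.

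On the log2(CPM + 1) scale the FBLN5 difference was -0.92 ± 0.16 (SE) for space_microg against ground and -0.68 ± 0.18 for space_1g against ground. Both comparisons use the same ground libraries. The ground mean was 1.92 times that of space_microg and 1.62 times that of space_1g. Limma called 0% of genes at an adjusted p under 0.05 in each of the 3 comparisons. In space_microg against ground DESeq2 on the recovered reads called 0.0227% of genes (871 genes at an unadjusted p under 0.05), and edgeR called 0% (741 unadjusted), with limma at 4.32% unadjusted. For space_1g against ground edgeR and DESeq2 both called 0% (227 and 327 genes unadjusted), as they did between the flight groups (221 and 339). The 3 genes called by DESeq2 were ADCY4, RBM3 and FBLN5, and for FBLN5 that call is no test, since it was chosen on the same contrast.

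FBLN5 did not follow the libraries that stood apart. Space_1g replicate 1 had 41.6 CPM beside 39.2 in its partner, and ground replicate 3 had 61.6, between the values of the other ground libraries. Without both of these libraries the difference was -0.96 for space_microg and -0.76 for space_1g against ground. FBLN5 was chosen for its difference between flight and ground, so its values in these libraries and without them restate that choice in part. Fewer cells of a type and less RNA per cell cannot be told apart in such bulk samples. Of the 14 endothelial markers, 0 passed in limma in either flight group against ground (smallest adjusted p of 0.866 and 1). In each flight group 3 were under an unadjusted 0.05, beside 4.32% of all genes in space_microg and 1.55% in space_1g. The sign of the difference was negative for 12 in space_microg and 13 in space_1g, with a median of -0.39 in both, beside 53% and 48.8% of all genes, and their part in the FBLN5 difference was not tested. FBLN5 had the smallest spread within groups among the 8 members (residual SD 0.17 on the log2 scale, against 0.28 to 0.76), and 16.9% of all genes had a smaller one. Choosing FBLN5 by its difference between groups favours a small spread, and the other members were not chosen in that way.

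Weightlessness and the centrifuge differ in gravity within the same flight. FBLN5 was not chosen on this contrast, but it was chosen for low values in both of these groups. The order, difference and adjusted p given next are therefore not independent of that choice and are a description. The 3 weightless libraries (29.2 to 37.9 CPM) all lay below both centrifuge libraries (39.2 and 41.6 CPM), an order found in 6.91% of genes, but the gap between 37.9 and 39.2 is narrower than the spread inside either flight group. The difference was -0.25 ± 0.18 with a 95% interval from -0.66 to 0.17 and an adjusted p of 0.912 in limma, an interval that includes 0 and values well below it.

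**Figure D1:**
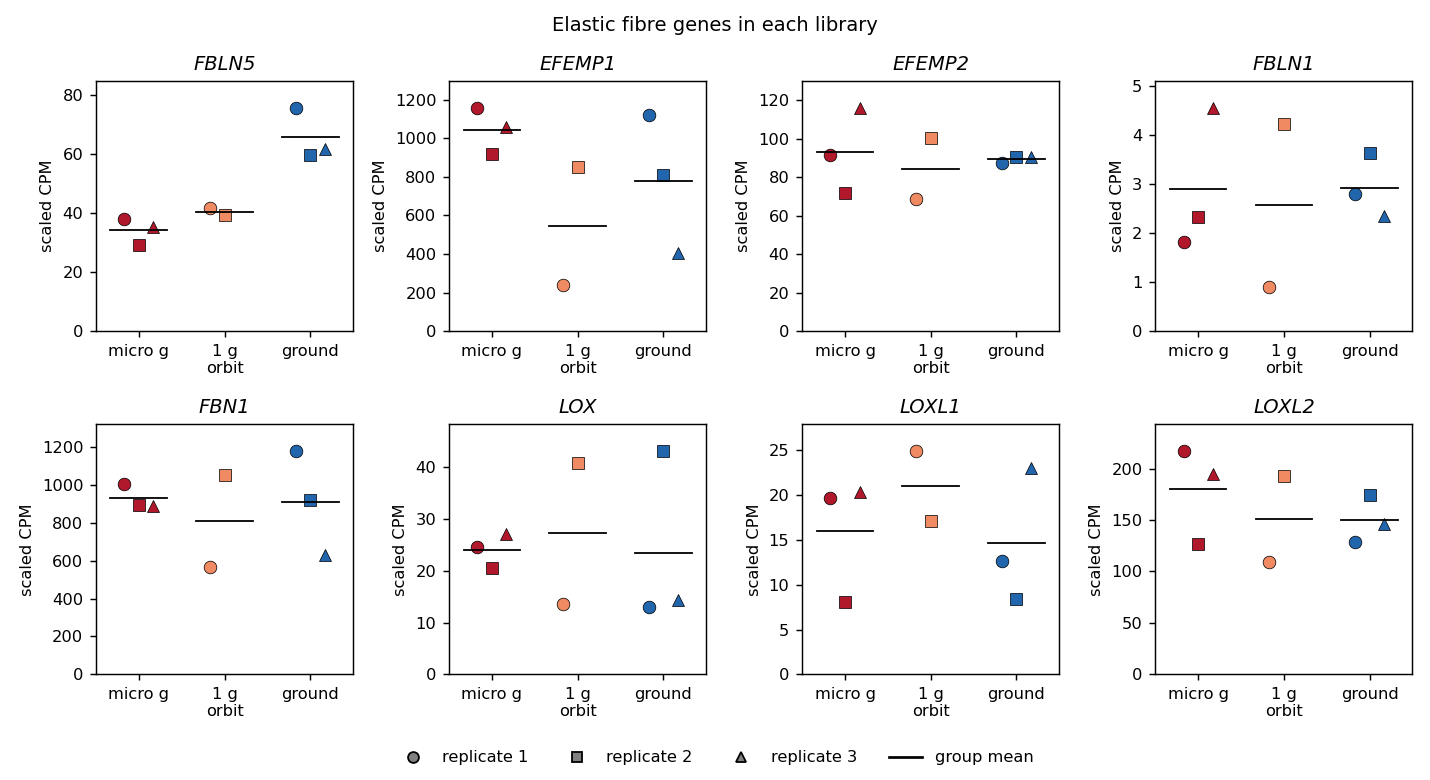
Scaled CPM of the 8 measured elastic fibre genes in each library (y axis from 0, its own range per gene) by group (micro g is space_microg and 1 g orbit is space_1g), with a symbol per replicate and a line at the group mean. FBLN5 is at 29.2 to 41.6 CPM in the 5 flight libraries and at 59.4 to 75.5 CPM on the ground, while the other 7 genes overlap between flight and ground.

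Per kilobase of exon, the fibulins covered a wide range of levels. EFEMP1 was the highest member with a mean of 207 CPM per kb over the 8 libraries, EFEMP2 had 16.6, FBLN5 9.54 and FBLN1 0.389. Of the summed level of the 3 short fibulins, EFEMP1 made up 74.2% to 92.4% in single libraries and FBLN5 2.35% to 10.2%.

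EFEMP1 makes fibulin-3, a short fibulin of basement membranes and fascia that is not required for the elastic fibres of arteries. Its levels were 1157, 917 and 1057 CPM in space_microg, 239.9 and 852 in space_1g, and 1122, 809 and 406 on the ground. The low values are space_1g replicate 1 and ground replicate 3, the libraries that stood apart, and the other 6 ran from 809 to 1157. Between all of space_microg and all of space_1g the ranges did not overlap (917 to 1157 against 239.9 to 852), an order found in 7.24% of genes. The difference there was 1.20 ± 0.55 with an interval from -0.05 to 2.45 and an adjusted p of 0.912 in limma. Without space_1g replicate 1 it was 0.29, and without space_1g replicate 2 it was 2.11, so its size rests on which centrifuge library is kept. Against ground, space_microg differed by 0.53 ± 0.49 (adjusted p = 0.873 in limma) and space_1g by -0.66 ± 0.55 (adjusted p = 1), and the ranges overlapped in both comparisons.

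EFEMP2, the gene of fibulin-4, had 91.3, 71.7 and 116 CPM in space_microg, 68.5 and 100.1 in space_1g, and 87.4, 90.4 and 90.6 on the ground. The ground libraries were nearly alike and both flight groups reached above and below them. Its differences from ground were 0.03 ± 0.21 for space_microg, with a 95% interval from -0.45 to 0.51, and -0.11 ± 0.23 for space_1g, with an interval from -0.64 to 0.42. EFEMP2 shares exon sequence on the opposite strand with MUS81, a DNA repair nuclease gene at 42.1 to 81.8 CPM. The sources used here do not say how strand was set in counting, so reads of such overlapping partners may not be told apart.

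Setting FBLN5 over EFEMP2 within a library takes out the library's scale. The ratio of reads per kilobase was 0.451, 0.443 and 0.327 in space_microg, 0.658 and 0.426 in space_1g, and 0.937, 0.713 and 0.739 on the ground. The flight and ground ratios to EFEMP2 did not overlap, which restates in part the FBLN5 values by which the gene was chosen. Set over FBN1 they did overlap, at 0.106 to 0.237 in flight and 0.207 to 0.315 on the ground, with space_1g replicate 1 highest in flight. Set over EFEMP1, space_1g replicate 1 (0.138) lay above all ground libraries (0.0536 to 0.121) and the other flight libraries at 0.0254 to 0.0367. As a share of the short fibulins, FBLN5 was 2.35% to 2.41% in space_microg, 10.2% and 3.27% in space_1g and 4.83% to 9.41% on the ground. That share is high in the centrifuge library and the ground library where EFEMP1 was low.

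**Figure D2:**
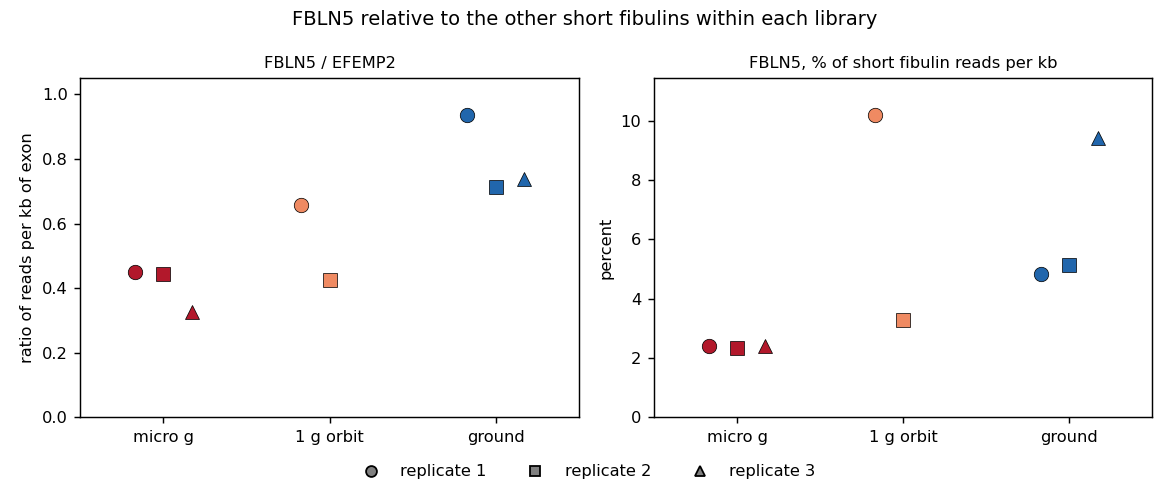
Left, the ratio of FBLN5 to EFEMP2 in reads per kilobase of exon in each library; right, FBLN5 as a percent of the 3 short fibulins (FBLN5, EFEMP1 and EFEMP2), with both y axes from 0 and a symbol per replicate (micro g is space_microg and 1 g orbit is space_1g). The ratio is 0.327 to 0.658 in flight and 0.713 to 0.937 on the ground, and the percent reaches 10.2 in space_1g replicate 1 and 9.41 in ground replicate 3.

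FBLN1 makes the long fibulin-1, a matrix and plasma protein, and was the lowest member, with 28 to 136 reads per library. Its levels were 1.82, 2.33 and 4.56 CPM in space_microg, 0.91 and 4.23 in space_1g, and 2.8, 3.63 and 2.36 on the ground. Both flight groups spanned the ground range. At this depth the counting error alone was 8.57% to 18.9%, and the differences of -0.06 ± 0.41 and -0.30 ± 0.46 against ground for space_microg and space_1g had intervals reaching 0.87 and 0.74 upward and -0.99 and -1.34 downward.

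FBN1 makes fibrillin-1, the backbone of the microfibrils, and had the second highest level per length of the 8 genes at 55.5 CPM per kb. It had 1005, 892 and 888 CPM in space_microg, 567 and 1051 in space_1g, and 1178, 918 and 631 on the ground. Space_1g replicate 1 and ground replicate 3 were the lowest again, below the 888 to 1178 of the other 6 libraries. The difference was 0.07 ± 0.29 for space_microg against ground, -0.19 ± 0.32 for space_1g against ground and 0.26 ± 0.32 between the flight groups, with adjusted p of 0.972, 1 and 0.912 in limma. Without both libraries that stood apart the first of these became -0.17 and the second 0.02.

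EFEMP1 and FBN1 varied together over the 8 libraries, with a Pearson r of 0.93 on the log2 scale. The points share library composition, and r with the first principal component was 0.86 for each. FBLN5 had an r of -0.10 with EFEMP1, 0.07 with FBN1 and 0.07 with EFEMP2, and its values with the other members ran from -0.28 (LOX) to 0.07. Markers of other cell types moved in both directions in space_1g replicate 1 and ground replicate 3. Of the 4 measured fibroblast markers, 3 were lowest there: COL1A2 had 10.5 and 16.4 CPM against 28.1 to 72.4 elsewhere, COL3A1 0.065 and 0 against 1.62 to 5.94, and THY1 3.54 and 3.71 against 5.21 to 28.1. COL1A1 had 90.5 and 138 CPM against 101 to 228, and the summed level of the fibroblast markers was 105 and 158 CPM. Of the 6 smooth muscle and pericyte markers, PDGFRB was lowest there (8.42 and 14.5 against 21 to 37.7 CPM), while CSPG4 (259 and 326 against 92.3 to 158), DES (2.5 and 1.62 against 0 to 0.199) and ACTA2 (20.4 and 20.5 against 8.85 to 17.6) were highest. TAGLN and RGS5 overlapped with the other libraries, and the summed level of these markers was highest in the same libraries, at 340.4 and 425 CPM. Among endothelial markers EMCN (1.04 and 1.2 against 12.5 to 21.5 CPM), ERG (65.8 and 52.4 against 84.9 to 133) and ROBO4 (62 and 61.4 against 63.5 to 109.8) were lowest there. FLT1 (67.2 and 93.7 against 18.4 to 46.6) and CLDN5 (8.03 and 9.93 against 0.263 to 3.25) were highest, and the remaining endothelial markers overlapped with the other libraries. These markers too were not all of 1 direction. Their part in the EFEMP1 and FBN1 values was not tested.

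**Figure D3:**
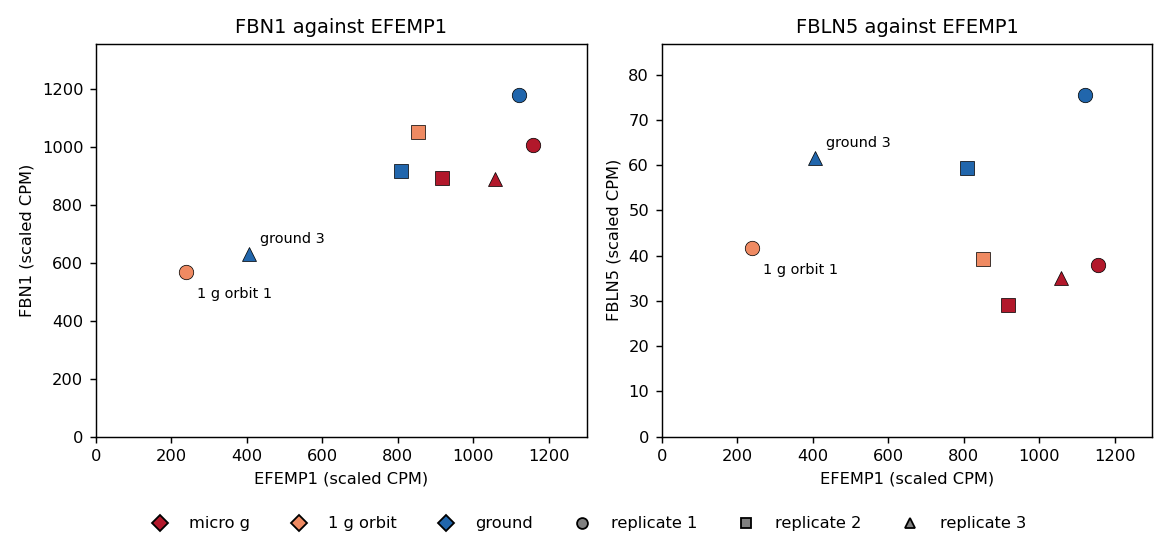
Each point is a library, coloured by group with a symbol per replicate (micro g is space_microg and 1 g orbit is space_1g); FBN1 (left) and FBLN5 (right) are plotted against EFEMP1, all in scaled CPM with axes from 0. Space_1g replicate 1 and ground replicate 3 are lowest for both EFEMP1 (239.9 and 406) and FBN1 (567 and 631), while for FBLN5 they lie with their own groups at 41.6 and 61.6.

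The lysyl oxidases oxidise lysines of elastin and collagen, the first step of cross-linking. LOXL2, which also acts on basement membrane collagen, was the main one, with 67.2% to 79.6% of the level per length of the 3 enzymes. LOX had a mean of 4.44 CPM per kb and LOXL1, the enzyme that fibulin-5 binds, 4.61, while LOXL2 had 28.2.

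LOX had 24.6, 20.5 and 27 CPM in space_microg, 13.6 and 40.8 in space_1g, and 13, 43.1 and 14.3 on the ground. The weightless libraries were close to each other and lay inside the range of both other groups, in which 1 library each was above 40 CPM and the rest at 13 to 14.3. The SD was 3.25 CPM (n = 3) in space_microg, 19.2 (n = 2) in space_1g and 17 (n = 3) on the ground. The difference from ground was 0.24 ± 0.50 (interval -0.90 to 1.37) for space_microg and 0.22 ± 0.56 (interval -1.05 to 1.50) for space_1g, and the flight groups differed by 0.01 ± 0.56. LOX overlaps SRFBP1 on the opposite strand, which was at 21.1 to 27.6 CPM with no such spread.

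LOXL1 had 19.7, 8.05 and 20.3 CPM in space_microg, 24.9 and 17.1 in space_1g, and 12.6, 8.37 and 23 on the ground. The libraries that stood apart had the highest values here, 24.9 and 23 CPM against 8.05 to 20.3 in the other 6. The difference from ground was 0.13 ± 0.43 for space_microg and 0.58 ± 0.48 for space_1g (adjusted p = 0.964 and 1 in limma), and space_microg against space_1g gave -0.45 ± 0.48. The antisense RNA LOXL1-AS1, on the opposite strand of the same locus, was at 8.26 to 10.8 CPM in all libraries. The balance of the enzymes shifted with the library: LOXL1 over LOX per length was 2.8 in space_1g replicate 1 and 2.46 in ground replicate 3, but 0.641 in space_1g replicate 2 and 0.296 in ground replicate 2.

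LOXL2 had 217, 127 and 195 CPM in space_microg, 109 and 193 in space_1g, and 129, 174 and 146 on the ground. The lowest libraries of the groups were alike at 127, 109 and 129 CPM, and the groups overlapped. Its differences were 0.24 ± 0.27 for space_microg against ground (interval -0.38 to 0.85), -0.04 ± 0.30 for space_1g against ground and 0.27 ± 0.30 between the flight groups, with adjusted p of 0.892, 1 and 0.912 in limma. LOXL2 lies from 23297189 to 23425328 on the minus strand of chromosome 8 and overlaps ENTPD4 on the same strand, which had 86.6 to 115 CPM.

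**Figure D4:**
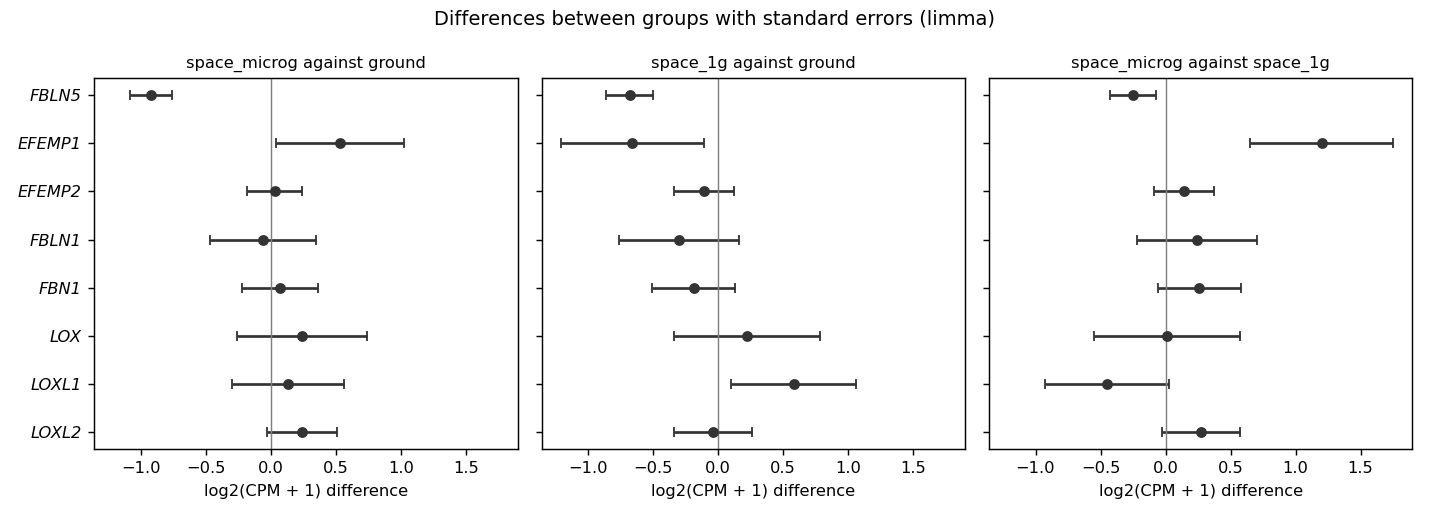
Differences on the log2(CPM + 1) scale for the 8 genes in the 3 comparisons; points are limma estimates, bars are 1 standard error, and the vertical line marks no difference. FBLN5 is at -0.92 and -0.68 against ground, values for which it was chosen, and EFEMP1 between the flight groups (1.20) has the estimate farthest from 0.

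Of the 8 members, 6 were higher and 2 lower in space_microg than on the ground, 2 higher and 6 lower in space_1g than on the ground, and 6 higher and 2 lower in space_microg than in space_1g. Their medians were 0.10, -0.15 and 0.19, beside -0.022, 0.006 and -0.025 for all genes, of which 53%, 48.8% and 53.4% were lower. In limma 0 of the 8 passed at an adjusted p under 0.05 in any comparison, and among the 7 members other than FBLN5 the smallest adjusted p were 0.873, 1 and 0.912 (smallest unadjusted p of 0.305, 0.258 and 0.058, so 0 of 7 under 0.05, with a 4.32%, 1.55% and 1.32% share of all genes under an unadjusted 0.05). FBLN5 was the only member whose groups did not overlap against ground, where 6.53% of all genes lay wholly lower in space_microg and 5.73% in space_1g, and 7.88% and 4.94% wholly higher.

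Other genes of elastic fibre assembly were taken from a list of microfibril proteins, processing enzymes and matrix partners, of which 37 of 42 were measured. In limma 0 of 37 passed in any comparison, and 1 had an unadjusted p under 0.05, in space_1g against ground, beside 1.55% of all genes. In space_microg 14 were higher and 23 lower than on the ground (median -0.06), and in space_1g 7 higher and 30 lower (median -0.10). Of all genes 53% were lower in space_microg (median -0.022) and 48.8% in space_1g (median 0.006). BMP1, the protease that activates lysyl oxidases, had 165, 112 and 133 CPM in space_microg against 182, 159 and 288 on the ground (-0.59 ± 0.28), but 238 and 139 in space_1g. CTSA, the protective protein of the elastin receptor complex, had 150.1 to 187 CPM in space_microg and 190.3 to 248 on the ground, with a difference of -0.31 ± 0.17. ADAMTS10, a partner of fibrillin microfibrils, was at 17.9 to 25.9 CPM in space_microg and 20.1 to 47.3 on the ground, and the proteoglycan VCAN, which binds fibrillin and fibulins, was highest in the libraries that stood apart (196 and 184 CPM against 43 to 102 elsewhere).

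Among proteases that cut elastin and their inhibitors, 16 of 23 were measured and 0 passed in limma. Against ground 2 had an unadjusted p under 0.05 for space_microg and 1 for space_1g, all lower, beside 4.32% and 1.55% of all genes. In space_microg 3 were higher and 13 lower than on the ground (median -0.20), and 4 and 12 in space_1g (median -0.16). For all genes the medians were -0.022 and 0.006, with 53% and 48.8% lower. TIMP3, a matrix-bound inhibitor of metalloproteinases, had 19.4, 17.7 and 20.3 CPM in space_microg, 31.7 and 19.1 in space_1g, and 44.2, 36.4 and 32.3 on the ground. All flight libraries lay below all ground libraries, by a margin of only 31.7 against 32.3. That order was found in 2.23% of all genes tested, and TIMP3 was named for its small unadjusted p in limma. TIMP4, a related inhibitor, had 9.03 to 9.86 CPM in space_microg and 11.5 to 19 on the ground, with 16.5 and 10.9 in space_1g. The lysosomal protease CTSD had 112 to 209 CPM in space_microg and 205 to 241 on the ground.

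Integrins that bind fibulin-5 and their partners gave 7 measured genes of 10, and 0 passed in limma. In each flight group 1 was under an unadjusted 0.05 against ground, beside 4.32% of all genes in space_microg and 1.55% in space_1g. Against ground 3 were higher and 4 lower in space_microg (median -0.03), and 1 higher and 6 lower in space_1g (median -0.25). The medians of all genes were -0.022 and 0.006, with 53% and 48.8% lower. ITGA9, a subunit of an integrin that takes part in valve formation in lymphatic vessels, had 11.3, 8.75 and 7.25 CPM in space_microg, 15.5 and 10 in space_1g, and 37.2, 20.3 and 16.2 on the ground (-1.28 ± 0.33 and -0.84 ± 0.37 against ground, adjusted p = 0.866 and 1 in limma). The flight libraries lay below the ground libraries, by 15.5 against 16.2 at the nearest, an order found in 2.23% of all genes tested. ITGA9 too was named for its small unadjusted p in limma. ITGA4 had 82.6 to 91.6 CPM in space_microg and 41.6 to 87.7 on the ground, ITGAV 422 to 505 and 391 to 422, and ITGA5 745 to 1119.6 and 1115 to 1965. The 27 genes of TGF-beta signalling, a pathway known to induce FBLN5, were all measured, and 0 passed in limma, with 0 under an unadjusted 0.05 too. In both flight groups they had a median of -0.11 against ground, with 10 higher and 17 lower in space_microg and 11 and 16 in space_1g. For all genes the medians were -0.022 and 0.006, with 53% and 48.8% lower. ENG, a co-receptor for TGF-beta in endothelium, had 149.6 to 328 CPM in space_microg and 294 to 336 on the ground.

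The 5 genes whose log2 levels followed FBLN5 most closely over the 8 libraries, among 11393 with a mean of at least 5 CPM, were NPR1 (r = 0.968), RFX1 (0.941), GALNS (0.936), TMEM51 (0.932) and ADCY4 (0.929). NPR1, a receptor for natriuretic peptides, had 4 to 5.38 CPM in space_microg, 5.21 to 8.16 in space_1g and 9.76 to 14.3 on the ground. ADCY4, an adenylyl cyclase, had 11.3 to 15.4, 15 to 16.6 and 26 to 37.2 CPM in the same order. Likeness to FBLN5 fixes this order of the groups, so these levels are a description. The 5 most opposite were LCA5 (r = -0.982), TLCD2 (-0.975), ICA1L (-0.970), RASSF8 (-0.953) and THEM4 (-0.944), with RASSF8 at 79.7 to 90.1, 80.8 to 81.5 and 57.2 to 60.6 CPM. None of the 7 other members is among them, but FBLN1, with a mean of 2.83 CPM, was too low to be ranked. FBN1 and EFEMP2, with r of 0.07, had 5051 and 5023 genes above them.

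Within 500 kb of FBLN5, 6 other listed genes were matched by symbol: CCDC88C, PPP4R3A, TRIP11, ATXN3, NDUFB1 and CPSF2. Of the 16153 listed genes 13867 could be matched in this way, so a neighbour listed under another name would be missed. Their differences for space_microg against ground ran from -0.40 ± 0.21 in CCDC88C to 0.50 ± 0.24 in NDUFB1, with the other 4 between -0.07 and 0.15. NDUFB1 lay wholly above the ground libraries there, as did 7.88% of all genes tested. For space_1g against ground CCDC88C had -0.67 ± 0.23 and lay wholly below the ground libraries, as did 5.73% of all genes tested. The other 5 were between -0.14 and 0.08. In limma 0 of the 6 passed.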

How the data were processed

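RNA from 8 libraries was made into stranded, ribosome-depleted total RNA libraries, per the labels' protocols. The authors deposited a signal for each gene, CPM scaled by a factor for each library. The submitters' processing notes name STAR 2.5.3, CASAVA 1.8.2, edgeR, featureCounts and FastQC, and the builds hg38 and GRCh38, without roles. Scale factors recomputed with edgeR's TMM from the recovered reads equalled the deposited ones. In each library 100% of values were whole multiples of 1 read (tolerance 1e-06 read), worth 0.0285 to 0.0398 CPM. A count of 0 allows up to 3 reads, 0.0855 to 0.12 CPM, for counting error only.

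Values were tested as log2(CPM + 1) in 16103 genes with at least 1 CPM in 2 libraries, using limma 3.58.1 (R 4.3.3, mean trend, two-sided, all 8 libraries in 1 fit) with Benjamini-Hochberg adjustment over all genes at 0.05. This test, planned for CPM, was kept for the scaled signal. It understates changes of low genes. EdgeR 4.0.16 and DESeq2 1.42.0 were run on recovered reads. Levels per kb use the union of GENCODE v29 exons. Steps were tested on simulated data. The members, the gene lists and the libraries described as standing apart were chosen with earlier results of these data known. Up to 4 genes per list were named by the smallest unadjusted p in space_microg against ground. The 5 genes most like and most opposite to FBLN5 were ranked by Pearson r over 8 libraries. Marker genes, neighbours and overlapping partners named beyond these rules were chosen after their values were seen. Alternatives covered pseudocount, filter, scaling, model, weights, a replicate block, a correction for GC content and length, and each library left out. The 4 promoter motifs were kept from a wider first search over the whole windows, which was dropped when the windows were found to hold annotated exons, and CpG was marked after these motifs gave no match.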

Additional observations from a re-analysis of the deposited data

How the results depend on the processing

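FBLN5 kept its sign under all 23 alternatives, at -1.07 to -0.82 for space_microg against ground, -0.88 to -0.57 for space_1g against ground and -0.32 to -0.14 between the flight groups. Its groups do not overlap in any of these comparisons, so leaving out or weighting libraries could not turn the sign. Against ground the sign also restates the values by which FBLN5 was chosen. The count of called genes for space_microg against ground was 0 in limma, 3 with DESeq2 on recovered reads, 2 with array weights estimated gene by gene (ADCY4 and RBM3) and 615 with array weights by REML, and 0 in every other setting and comparison. The REML weights were run first and did not converge, with a weight of 43.4 on ground replicate 1, and the gene-by-gene estimate was chosen after seeing that result. With a replicate block 0 genes were called in each comparison. Whether the numbers pair the libraries was not settled, as the libraries are few. Deviations of same-numbered libraries had correlations from -0.68 to 0.68. Of 5 best matches of the weightless libraries that could fall on their own number, 2 did not and the rest did. Leaving out a space_1g library leaves 1, assumed to vary like the other groups. Removing the trend on GC content and length, which explained 53.4% of the deviation of space_microg replicate 2, covered 86% of genes.

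The other 7 members were called in no setting. Of 549 repeats over all 8 members and 3 comparisons, 52 changed sign, and the cause was not tested. For space_microg against ground, EFEMP1 was -0.05 with REML weights, FBN1 was -0.20 with array weights, -0.30 with REML weights and -0.17 without both libraries that stand apart, and FBLN1 was 0.01 with quantile normalization, 0.09 with the GC and length trend removed and 0.02 with edgeR. Leaving out single libraries gave -0.14 to 0.20 for EFEMP2, -0.34 to 0.14 for FBLN1, -0.17 to 0.28 for FBN1, -0.06 to 0.77 for LOX and -0.19 to 0.53 for LOXL1.

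For space_1g against ground, the median of the 8 members (-0.15) was 0.243 without both libraries that stand apart and -0.585 to 0.289 with single libraries left out, the ends being space_1g replicate 2 and replicate 1. Without both libraries that stand apart, EFEMP2 was 0.17, FBLN1 0.32, FBN1 0.02 and LOXL2 0.36. LOXL2 was 0.06 with array weights, 0.16 with REML weights, 0.03 with edgeR and 0.003 with DESeq2. Single libraries left out gave -1.58 to 0.25 for EFEMP1, -0.38 to 0.16 for EFEMP2, -1.03 to 0.42 for FBLN1, -0.63 to 0.26 for FBN1, -0.53 to 0.98 for LOX and -0.45 to 0.37 for LOXL2.

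Between the flight groups the median (0.192) was -0.188 without both libraries that stand apart and -0.188 to 0.696 with single libraries left out, the ends being space_1g replicate 1 and replicate 2. Without both libraries that stand apart, EFEMP2 was -0.13, FBLN1 -0.48, FBN1 -0.18, LOX -0.75 and LOXL2 -0.14. LOX was -0.01 with a pseudocount of 4, -0.14 with the GC and length trend removed, -0.16 with edgeR and -0.17 with DESeq2. Single libraries left out gave -0.13 to 0.41 for EFEMP2, -0.48 to 0.97 for FBLN1, -0.18 to 0.71 for FBN1, -0.75 to 0.77 for LOX and -0.14 to 0.68 for LOXL2.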
